A study of Mus musculus with 12 samples.

Results

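Pax7, Pax3, Myf5, Myod1, Myog, Myf6, Mymk, Mymx and Mef2c are the transcription factors and membrane proteins that carry a muscle stem cell from quiescence to a fused muscle fiber. These 9 genes were taken by symbol out of 25093 genes in the count table, and all 9 were found there. RNA was sequenced from satellite cells, the stem cells of skeletal muscle, sorted from mice of 3 to 4 months. All mice carried Pax7-CreERT2/+, in which a tamoxifen-inducible Cre recombinase is placed behind the coding sequence of 1 Pax7 allele, and the R26R-YFP reporter, and all received tamoxifen. Control mice were Gli3+/+, and Gli3 knockout (KO) mice were Gli3fl/fl, so that a floxed exon of Gli3 is removed in Pax7-expressing cells. Quiescent satellite cells (QSCs) came from all hindlimb muscles of uninjured mice, with 2 to 3 mice combined in each library, and were sorted on α7-integrin and CD34. Activated satellite cells (ASCs) came 3 days after cardiotoxin injury, from the gastrocnemius and tibialis anterior, with 1 mouse in each library, and were sorted on α7-integrin and VCAM1. Both sorts removed cells carrying CD31, CD45, SCA1 or CD11b. State, injury, muscles, sort gate and pooling therefore changed together between QSCs and ASCs, and their contributions cannot be told apart.

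The table held 3 control QSC libraries, 3 KO QSC libraries and 6 ASC libraries. The names of the ASC columns give the state and not the genotype. The 6 ASC libraries, of both genotypes, were therefore used as 1 group and numbered in column order, and KO was compared with control only in QSCs. Library totals were 39556784, 65340069 and 47007056 estimated counts in control QSCs, 51913963, 65750131 and 50417695 in KO QSCs, and between 36886130 and 60776017 in ASCs. Values below are CPM, counts scaled to a common library size with TMM factors. In bulk libraries such as these, fewer cells of a type and less RNA per cell cannot be told apart.

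PAX7 and PAX3 are paired-box transcription factors. PAX7 marks nearly all adult satellite cells and is required for their maintenance. The 4 myogenic regulatory factors (MRFs), encoded by Myf5, Myod1, Myog and Myf6, are basic helix-loop-helix proteins that bind DNA at E-boxes together with an E protein. MYF5 and MYOD act in determination and in proliferating myoblasts, while myogenin drives terminal differentiation. MEF2C is a MADS-box factor that cooperates with the MRFs, and myomaker (Mymk) and myomixer (Mymx) are muscle membrane proteins required for myoblast fusion.

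In GRCm38, with the GENCODE vM21 annotation, Pax7 (ENSMUSG00000028736.13) lies at chr4:139737062-139833528 on the minus strand and Pax3 (ENSMUSG00000004872.15) at chr1:78101267-78197134 on the minus strand. Myf5 (ENSMUSG00000000435.1, chr10:107482908-107486134) and Myf6 (ENSMUSG00000035923.4, chr10:107492853-107494737) are neighbours on the minus strand of chromosome 10. Myod1 (ENSMUSG00000009471.4) is at chr7:46376474-46379099 and Myog (ENSMUSG00000026459.5) at chr1:134289989-134292548, both on the plus strand. Mymk (ENSMUSG00000009214.9) is at chr2:27061636-27072179 and Mymx (ENSMUSG00000079471.4) at chr17:45600971-45602102, both on the minus strand. Mef2c (ENSMUSG00000005583.16) covers chr13:83504034-83667080 on the plus strand.

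The upstream sequences of Myog and Myf5 are shown because both encode MRFs, which bind E-boxes, and moved in opposite directions between the states. Each is the stretch of 200 bases from 250 to 51 bases before the RefSeq start (GRCm38.p6), outside annotated exons, written 5′ to 3′ on the strand of the gene. Capitals mark E-boxes of the form CANNTG, a palindromic pattern that was searched once for both strands.
Myog, chr1:134289754-134289953, plus strand: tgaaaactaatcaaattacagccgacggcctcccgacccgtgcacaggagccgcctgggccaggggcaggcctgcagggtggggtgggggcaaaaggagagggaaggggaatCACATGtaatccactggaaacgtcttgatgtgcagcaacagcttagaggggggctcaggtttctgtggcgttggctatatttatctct
Myf5, chr10:107486185-107486384, minus strand: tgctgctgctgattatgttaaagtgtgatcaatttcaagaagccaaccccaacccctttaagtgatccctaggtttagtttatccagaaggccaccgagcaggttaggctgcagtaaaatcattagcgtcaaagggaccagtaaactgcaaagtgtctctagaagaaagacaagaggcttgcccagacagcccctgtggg
The Myog stretch held 1 E-box and the Myf5 stretch held 0. Of 32851 such stretches in the RefSeq table, 59.0% held at least 1 CANNTG. The 3 stretches of Mef2c held 2, 0 and 1, and that of Pax7 held 0. The Mef2c stretch with 0 and the Pax7 stretch each overlap an annotated exon. The variant CAGCTG was in 10.3% of all stretches and in none of these 6. A strict MEF2 consensus, YTAWWWWTAR, was searched on both strands (Y is C or T, W is A or T, R is A or G). It was in 2.42% of all stretches and likewise in none of the 6. The Myog stretch holds ctatatttat near its end, which differs from this consensus only in the last base. A MEF2 site of a looser form is therefore not excluded there. These are matches of letters only.

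Before the comparisons, 1 library has to be set apart. ASC 6 correlated with the other ASC libraries at 0.900 to 0.934 (Pearson's r of log2 CPM across genes, which are not independent replicates), and the other 5 ASC libraries with each other at 0.966 to 0.985. Markers of other cell types were high in it. The summed level of 8 macrophage markers was 5166 CPM in ASC 6, against 249.7 to 716 CPM in the other ASC libraries and 10.8 to 29.1 CPM in QSCs. Its most abundant macrophage gene was Lyz2, at 3396 CPM. The sum of 6 fibro-adipogenic markers was 3336 CPM in ASC 6 and 153 to 514 CPM in the other ASC libraries, with Col1a1 the most abundant. The sums for Schwann cells (1192 CPM), mural cells (1178 CPM, Rgs5) and endothelial cells (406 CPM, Pecam1) were also the highest of the 12 libraries. In QSCs the fibro-adipogenic, Schwann and endothelial sums were 546 to 856, 170 to 293 and 149 to 241 CPM. Every QSC library was thus above ASCs 1 to 5 for these sums, while the mural sums (170 to 424 CPM in QSCs) overlapped. No marker of these lists was at 0 in ASC 6. Both sorts removed CD45+ and CD11b+ cells. Macrophage markers were higher in every ASC library than in any QSC library. The part of these cells in the results below was not tested. The members' changes, the ratios and the counts of the gene lists between the states are given with and without ASC 6. So is the order of levels in ASCs.

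**Figure D1:**
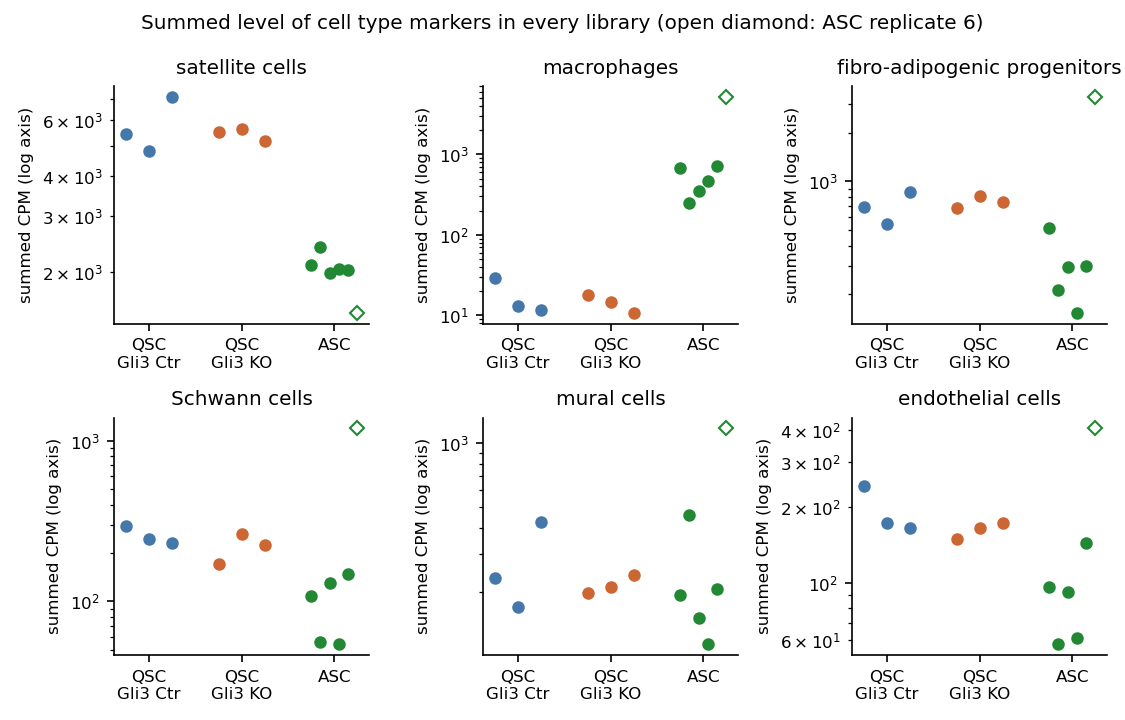
Summed CPM (log axis) of the markers of satellite cells and 5 other cell types in each of 12 libraries. Points are libraries, and the open diamond is ASC 6, which is the highest library for the 5 other cell types, with 5166 CPM of macrophage markers, and the lowest for satellite cell markers.

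The label was checked against 10 satellite cell markers, of which Pax7 and Myf5 are themselves among the 9 genes described and 3 others encode proteins of the sort gates. The 10 markers summed to 4808 to 7118 CPM in QSCs and 1490 to 2401 CPM in ASCs, and none was at 0 in any library. Without Pax7 and Myf5, the other 8 summed to 3615 to 5829 CPM in QSCs and 1403 to 2156 CPM in ASCs. Without the 3 gate genes as well, the last 5 summed to 2427 to 4188 CPM in QSCs and 486 to 704 CPM in ASCs. Calcr and Chrdl2, genes of quiescent satellite cells, fell from means of 220.7 and 164 CPM in QSCs to 1.98 and 1.21 CPM in ASCs. Without ASC 5 the mean of Chrdl2 in ASCs was 0.802 CPM. Spry1, an inhibitor of receptor tyrosine kinase signaling, fell from 909 to 41.3 CPM, and Sdc4, a surface proteoglycan, from 1285 to 312 CPM. Cdh15 (M-cadherin) fell from 363 to 208 CPM. Cd34, Vcam1 and Itga7 encode proteins of the sort gates, so their differences are not read as findings. Their means in QSCs and ASCs were 240.4 and 77.1 CPM, 651 and 338 CPM, and 455 and 801 CPM. The 13 genes of the dissociation response, such as Fos and Egr1, summed to 47853 to 66460 CPM in QSCs and 2078 to 6012 CPM in ASCs. All 13 were lower in ASCs, and the part of this difference in the results below was not tested.

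The first question was how the regulators differ between quiescence and activation. Pax7, Pax3, Myf5 and Myf6 were lower in ASCs, and Myod1, Myog, Mymk, Mymx and Mef2c were higher. The sizes ran from 1.88-fold lower for Myf6 to 106-fold higher for Mymx. The size for Mymx depends on few QSC counts, and was 70-fold in the fit of the states alone. A call required a fold change of 1.2 or more together with an adjusted p below 0.05, by the quasi-likelihood test of edgeR, adjusted by Benjamini-Hochberg over 25093 genes. All 9 members were called, 5 higher and 4 lower. Of all genes, 58.9% were called in this comparison, 31.1% higher and 27.8% lower. Without ASC 6 the 9 members were again called, 5 higher and 4 lower, against 60.7% of all genes. For each of the 9 members the QSC and ASC libraries did not overlap, as was true of 39.6% of all genes.

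**Figure D2:**
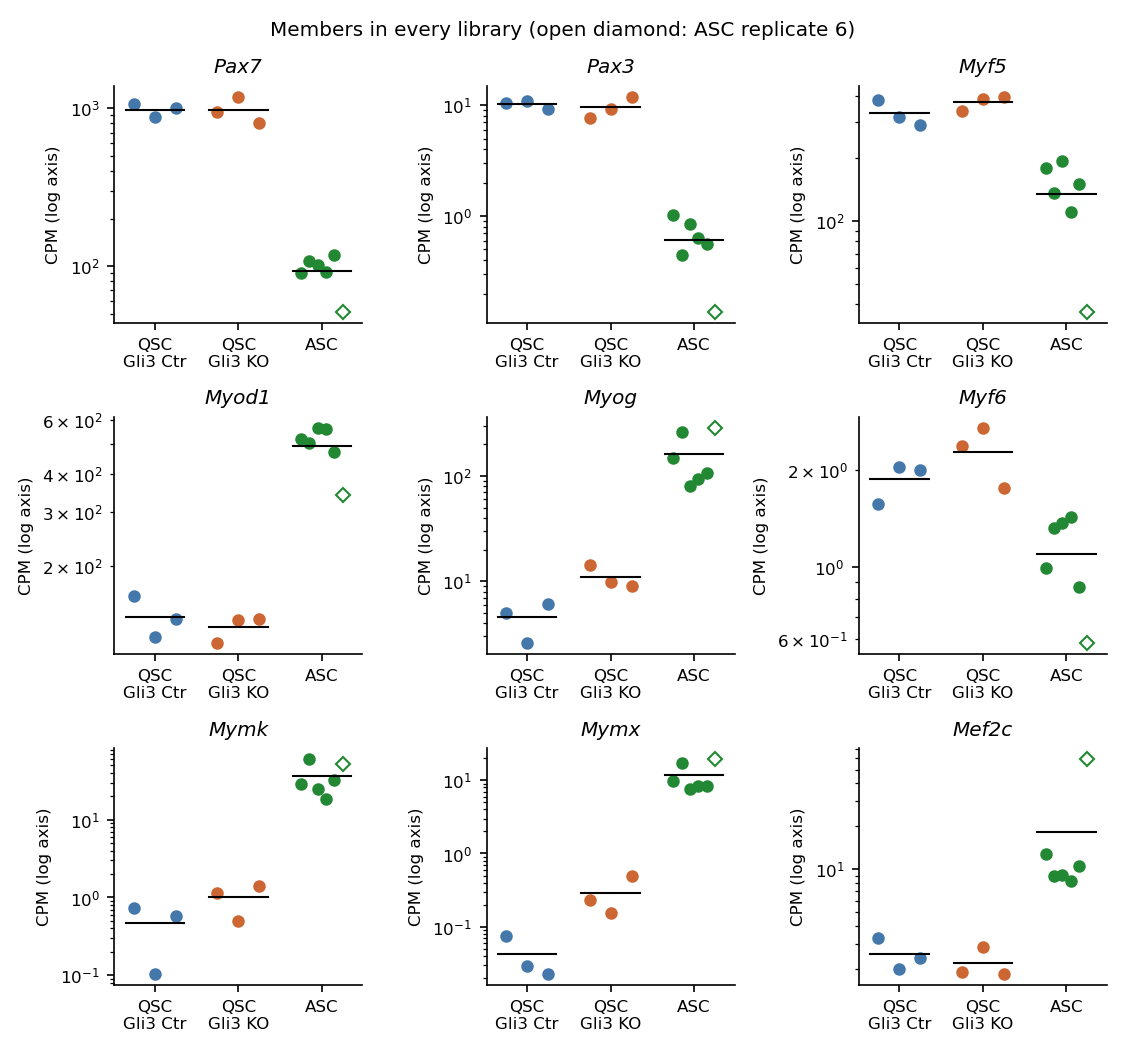
CPM of the 9 members (log axes with different ranges) in control QSCs (n = 3), KO QSCs (n = 3) and ASCs (n = 6). Points are libraries, lines are group means and the open diamond is ASC 6. QSC and ASC libraries are apart in every panel, and the KO libraries lie above the control libraries in the panels of Myog and Mymx.

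Among the paired-box factors, Pax7 was at 1057, 877 and 999 CPM in control QSCs and at 948, 1181 and 800.3 CPM in KO QSCs. In ASCs 1 to 6 it was at 90.3, 108, 101, 91.4, 117 and 50.9 CPM. Every ASC library was far below every QSC library, and ASC 6 was the lowest. The log2 fold change was −3.39 (SE 0.195), a 10.5-fold lower level (adjusted p = 2.78e-08, edgeR). Without ASC 6 it was −3.29 (SE 0.13). The counts do not separate the Pax7 allele that carries the recombinase from the other allele.

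Pax3, the paralog of Pax7 that is best known from embryonic muscle, was far lower. It was at 10.5, 10.9 and 9.22 CPM in control QSCs, at 7.68, 9.18 and 11.9 CPM in KO QSCs, and between 0.136 and 1.02 CPM in ASCs (median 0.599). Its ASC values rest on 7 to 40 counts per library, and the lowest was again ASC 6. The log2 fold change was −4.03 (SE 0.39, adjusted p = 2.1e-06, edgeR), and −3.85 (SE 0.250) without ASC 6.

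The determination factors moved in opposite directions. Myf5 was at 380, 316 and 289.8 CPM in control QSCs and at 336, 386 and 395 CPM in KO QSCs. Its levels in ASCs 1 to 6 were 179.9, 137, 195, 111, 150.05 and 36.6 CPM. All ASC libraries were below all QSC libraries, with ASC 6 well under the other 5. The log2 fold change was −1.37 (SE 0.302, adjusted p = 0.00173, edgeR) and −1.21 (SE 0.145) without ASC 6.

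Myod1 was at 159, 117 and 134 CPM in control QSCs and at 112, 134 and 134 CPM in KO QSCs. ASCs 1 to 6 held 518, 503, 565, 559, 472 and 340.1 CPM. It was the member with the most even level across the ASC libraries, with a coefficient of variation of 16.8% (12.6% in QSCs). Its log2 fold change was 1.90 (SE 0.135), a 3.74-fold higher level (adjusted p = 1.47e-07, edgeR), and 1.96 without ASC 6.

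Myog, the differentiation factor, was at 4.97, 2.59 and 6.09 CPM in control QSCs and at 14.2, 9.87 and 9.07 CPM in KO QSCs. Levels of 148, 264.7, 79.9, 92.9, 108 and 287 CPM were measured in ASCs 1 to 6. ASC 2 and ASC 6 stood above the other 4 ASC libraries. Between the states, its log2 fold change was 4.53 (SE 0.392), a 23.1-fold higher level (adjusted p = 7.95e-07, edgeR). Without ASC 6 it was 4.27.

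Myf6, the MRF best known from mature muscle fibers, was low throughout, at 1.57 to 2.7 CPM in QSCs and 0.582 to 1.43 CPM in ASCs. It rests on 30 to 177 counts per library. It was the only MRF besides Myf5 that was lower in ASCs, with a log2 fold change of −0.91 (SE 0.265, adjusted p = 0.0101, edgeR) and of −0.81 without ASC 6.

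The fusion genes were nearly absent from QSCs. Mymk was at 0.724, 0.103 and 0.582 CPM in control QSCs and at 1.15, 0.503 and 1.42 CPM in KO QSCs. In ASCs 1 to 6 it was at 28.5, 60.9, 24.9, 18.5, 32.3 and 51.6 CPM. ASC 2 and ASC 6 were again the highest. Its log2 fold change was 5.73 (SE 0.493), a 53.1-fold higher level (adjusted p = 7.58e-07, edgeR), and 5.59 without ASC 6.

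Mymx had 3, 2 and 1 counts in the control QSC libraries and 12, 10 and 25 counts in the KO QSC libraries. In ASCs 1 to 6 it had 384, 1007, 320, 316, 326 and 1014 counts, or 7.69 to 19.7 CPM, with ASC 2 and ASC 6 once more the highest. The log2 fold change between the states was 6.73 (SE 0.453, adjusted p = 9.33e-08, edgeR), and 6.51 without ASC 6.

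Mef2c was at 3.3, 2 and 2.39 CPM in control QSCs and at 1.9, 2.86 and 1.83 CPM in KO QSCs. In ASCs 1 to 5 it was at 12.8, 8.94, 9.13, 8.31 and 10.5 CPM, and in ASC 6 at 59.6 CPM. ASC 6 decided the size of this change. With it, the log2 fold change was 2.94 (SE 0.529), a 7.67-fold higher level (adjusted p = 0.000392, edgeR). Without it, the log2 fold change was 2.04 (SE 0.198), a 4.10-fold higher level (adjusted p = 1.49e-06, edgeR). MEF2C is not restricted to muscle, and is known from macrophages and endothelial cells too.

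ASC 2 and ASC 6, the highest libraries for Myog, Mymk and Mymx, also had the largest totals among ASC libraries (60776017 and 52912805 counts, against at most 40881942). Their summed level of 10 mature myofiber markers was 465 and 393 CPM, against 128 to 202 CPM in the other ASC libraries, with Acta1 the most abundant. ASC 2 did not share the macrophage signal and had the lowest macrophage sum of the 6, 249.7 CPM. The part of depth and of myofiber RNA was not tested.

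**Figure D3:**
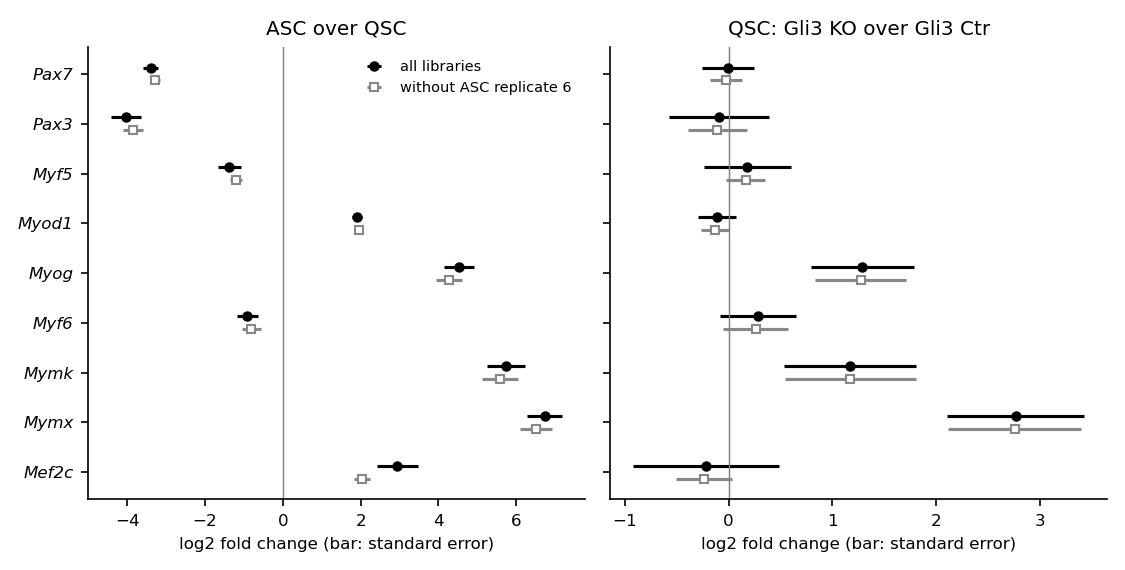
Log2 fold changes of the 9 members with standard errors, for ASC over QSC (left) and for KO over control in QSCs (right), with all libraries (filled circles) and without ASC 6 (open squares). On the left, Mef2c moves the most when ASC 6 is left out, from 2.94 to 2.04. On the right, Mymx at 2.77 and Myog at 1.29 lie farthest from 0, and edgeR called neither.

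Levels can be compared between genes only per length, here as CPM per kilobase of annotated exons. In QSCs, Myf5 (168 ± 20.6, SD, n = 6) and Pax7 (167 ± 23.0) were the highest, and their ranges overlapped. Myod1 followed at 70.8 ± 8.89, apart from both neighbours. Myog (5.22 ± 2.76), Myf6 (1.64 ± 0.324) and Pax3 (1.60 ± 0.244) came next, and the ranges of Myog and Myf6, and of Myf6 and Pax3, overlapped. Mymk (0.494 ± 0.313), Mymx (0.163 ± 0.174) and Mef2c (0.151 ± 0.0376) were the lowest, each overlapping its neighbour among these. Mymx was above Mef2c in only 2 of 6 libraries, and its mean rests on KO replicate 3. Without that library, Mymx (0.0991 ± 0.086, SD, n = 5) was below Mef2c (0.158 ± 0.0375), Pax7 (173 ± 19.7) was above Myf5 (164 ± 19.9), and the order of the other genes was as given. Mef2c has the longest annotated exons of the 9 genes, 15715 bases, and the transcripts in use were not resolved here.

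In ASCs, Myod1 was the highest, at 265 ± 44.4 CPM per kilobase (SD, n = 6). Myog (109 ± 60.5), Myf5 (64.8 ± 27.3), Mymk (23.9 ± 10.9), Pax7 (15.9 ± 3.92) and Mymx (11.5 ± 5.09) followed. From Myod1 to Mymx, the range of each gene overlapped that of the next. Myod1 was above Myog in 5 of 6 libraries, and in ASC 6 Myog was above, at 192 against 183 CPM per kilobase. Mef2c (1.16 ± 1.29) and Myf6 (0.867 ± 0.266) overlapped, and Pax3 was the lowest, at 0.0982 ± 0.05. Mef2c was above Myf6 in only 2 of 6 libraries, and its mean rests on ASC 6. Without ASC 6, Mef2c (0.632 ± 0.113, SD, n = 5) was below Myf6 (0.948 ± 0.198), and the order of the other genes was as given.

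Ratios of members within a library do not depend on library size. There were 6 such tests, by exact two-sided permutation, and p-values were adjusted over them. There were 0.151, 0.134 and 0.134 Myod1 counts for each Pax7 count in control QSCs and 0.118, 0.113 and 0.168 in KO QSCs. In ASCs 1 to 6 there were 5.74, 4.66, 5.6, 6.12, 4.04 and 6.68. The log2 ratio of Myod1 to Pax7 thus rose by 5.32 (SE 0.139, exact permutation p = 0.00216, adjusted 0.00433). This is the smallest p that 6 against 6 libraries allow. Without ASC 6 the rise was 5.26. In ASC 6, where both genes were at their lowest, the ratio was the highest of the 6.

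The log2 ratio of Myf5 to Pax7 was −1.48 ± 0.254 in QSCs and 0.41 ± 0.537 in ASCs (SD, n = 6 each), a rise of 1.89 (SE 0.242, exact permutation p = 0.00216, adjusted 0.00433). Both genes fell, and the ratio was higher in every ASC library than in any QSC library. ASC 6 had the lowest ratio, 0.719 Myf5 counts for each Pax7 count, against 1.21 to 1.99 in the other 5, and without it the rise was 2.06. The log2 ratio of Myog to Myod1 was −4.26 ± 0.914 in QSCs and −1.75 ± 0.995 in ASCs (SD, n = 6 each), a rise of 2.51 (SE 0.552, exact permutation p = 0.00216, adjusted 0.00433). Without ASC 6 it was 2.21.

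**Figure D4:**
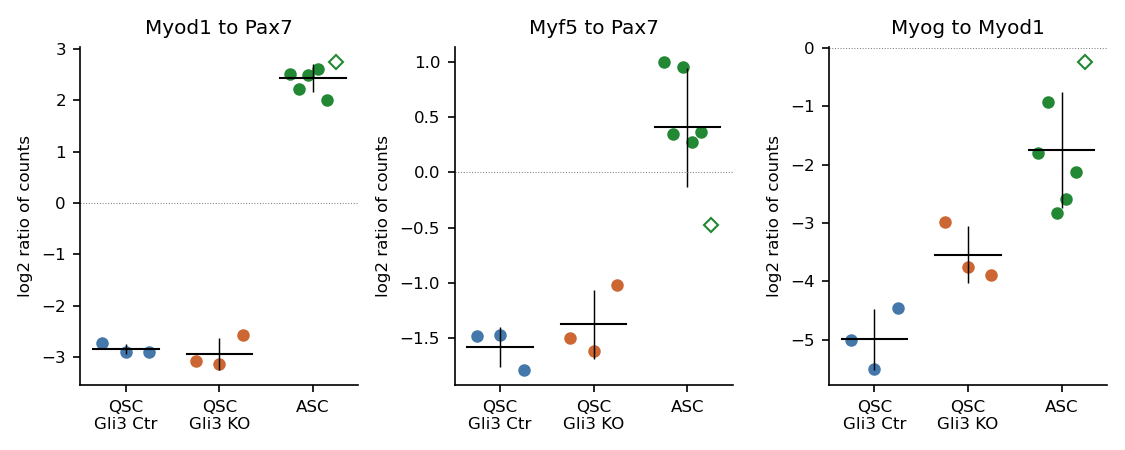
Log2 ratios of counts within a library for Myod1 to Pax7, Myf5 to Pax7 and Myog to Myod1 in control QSCs (n = 3), KO QSCs (n = 3) and ASCs (n = 6). Points are libraries, horizontal lines are means, vertical lines are SDs and the open diamond is ASC 6. ASC libraries lie above all QSC libraries for each ratio, and the KO libraries lie above the control libraries for Myog to Myod1.

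The second question was whether loss of Gli3 changes these genes in quiescent cells. Gli3 itself was at 11.3, 9.63 and 9.4 CPM in control QSCs and at 9.58, 10.7 and 6.27 CPM in KO QSCs. The libraries overlapped (log2 fold change −0.19, SE 0.415, adjusted p = 1, edgeR). Counts per gene do not isolate the removed exon, so this value does not check the genotype, which rests on the labels. None of the 9 members was called by edgeR (limma-voom called 0 and DESeq2 called 1, Mymx), with 2 of 9 at an unadjusted p under 0.05. Of all genes, 0.012% were called, which is 3 genes, and 4.91% had an unadjusted p under 0.05. These 3, named after their values were seen, were Mgarp (log2 fold change 3.98, higher in KO), Pkmyt1 (−2.93) and Supt4b (−9.67).

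Pax7 had a log2 fold change of −0.00 (SE 0.251) in KO QSCs, Pax3 one of −0.09 (SE 0.48), Myf5 one of 0.18 (SE 0.419) and Myod1 one of −0.11 (SE 0.185). Myf6 was at 0.28 (SE 0.369) and Mef2c at −0.22 (SE 0.706). The genotypes overlapped for all 6 of these genes. The standard errors share 1 estimate of spread with the ASC libraries. Without ASC 6 they were 0.156 for Pax7, 0.284 for Pax3, 0.191 for Myf5 and 0.267 for Mef2c, and in the fit of the QSC libraries alone 0.166, 0.201, 0.143 and 0.3. No member was called in either fit.

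Myog was the member with enough counts to be read in every QSC library whose genotypes stood apart. It had 199, 176 and 272 counts in control QSCs and 743, 648 and 460 in KO QSCs, so that each KO library exceeded each control library. The log2 fold change was 1.29 (SE 0.496), a 2.44-fold higher level with an unadjusted p of 0.0229 and an adjusted p of 0.919 (edgeR over all genes). Without ASC 6 it was 1.27. In the fit of the 6 QSC libraries alone, which called 0.354% of genes, the adjusted p was 0.294, and over all alternatives it ran from 0.283 to 1. Groups that did not overlap with KO above control were found for 2 of the 9 members and for 7.39% of all genes.

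Mymx was the other such member. Its 6 counts in control QSCs and 47 in KO QSCs give a ratio of 7.10 after scaling, with an exact 95% interval of 3.03 to 20.3 that covers counting error only. The fitted log2 fold change was 2.77 (SE 0.661, unadjusted p = 0.00117, adjusted p = 0.406, edgeR). KO replicate 3 held 25 of the 47 counts, and without it the log2 fold change was 2.17 (a 4.50-fold higher level). When each library was left out it ran from 2.17 to 3.33. DESeq2 called it, at an adjusted p of 0.0431, where it called 0.597% of genes, and over all alternatives the adjusted p ran from 0.0431 to 1. Mymk, its partner in fusion, had a log2 fold change of 1.17 (SE 0.637, adjusted p = 1, edgeR), and its genotypes overlapped.

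The log2 ratio of Myog to Myod1 was −4.99 ± 0.523 in control and −3.54 ± 0.493 in KO QSCs (SD, n = 3 each). The difference of 1.45 (SE 0.415) separated the genotypes, with an exact permutation p of 0.1, the smallest that 3 against 3 libraries allow, and 0.15 after adjustment. The ratios of Myod1 to Pax7 and of Myf5 to Pax7 overlapped between the genotypes, with differences of −0.09 (SE 0.188) and 0.20 (SE 0.209) and an exact permutation p of 0.6 each. The summed level of mature myofiber markers was 94.8, 102 and 107 CPM in control QSCs and 116, 147 and 144 CPM in KO QSCs. The sum was higher in each KO library, but most of the difference lay in 1 of the 10 genes, Atp2a1 (46.4 CPM in control and 74 CPM in KO). Without it the sums overlapped, at 48.3 to 62.6 CPM in control and 51.2 to 75.4 CPM in KO QSCs, and 6 of the 10 genes had a positive log2 fold change. Its part in the values of Myog and Mymx was not tested.

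The 4 lists of genes around the members were compared in the same fits. Their counts between the states are to be read against those over all genes, of which 58.9% were called, 31.1% higher and 27.8% lower. MRFs bind DNA with E proteins, and ID proteins hold E proteins back. All 7 genes of this list were called between the states, 3 higher and 4 lower in ASCs, with a median log2 fold change of −0.91 against 0.01 over all genes. Without ASC 6 the calls were again 3 and 4, and the median was −0.87. Id3 fell from 432 to 125 CPM, Id1 from 159.8 to 85 CPM and Id4 from 7.46 to 2.32 CPM (1.52 CPM without ASC 6), while Id2 rose from 50.5 to 134 CPM. Among the E proteins, Tcf4 fell from 396 to 139.7 CPM and Tcf12 rose from 128 to 254 CPM.

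Of 33 other MEF2 factors and upstream or cooperating transcription factors, 13 were higher in ASCs, 13 were lower and 7 were not called, with or without ASC 6. Over all genes 58.9% were called, and 60.7% without ASC 6. The median log2 fold change was 0.12, and −0.03 without ASC 6, against 0.01 and −0.07 over all genes. Tead4, a TEA-domain factor, rose from 1.12 to 33.8 CPM, and Smyd1, a muscle histone methyltransferase, from 0.759 to 14.6 CPM. Msc (musculin), a repressor of MRF activity, fell from 290.5 to 14.6 CPM and Mef2b from 1.06 to 0.0512 CPM. Twist1, an inhibitor of MRFs, rose from 0.239 to 2.36 CPM. Hdac9, a deacetylase that represses MEF2, rose from 0.25 to 3.05 CPM, or to 1.76 CPM without ASC 6.

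Of 28 adhesion, cytoskeleton and membrane genes with a role in fusion, 12 were higher, 7 were lower and 9 were not called, where 31.1% of all genes were higher and 27.8% lower. The median log2 fold change was 0.60 against 0.01 over all genes. Without ASC 6 the calls were 13, 9 and 6, and the median was 0.08 against −0.07. Myof (myoferlin), a membrane repair and fusion protein, rose from 15.4 to 581 CPM, Cdh2 (N-cadherin) from 12.2 to 232 CPM and Tmem182 from 0.547 to 15.3 CPM. Adgrb1, a receptor for phosphatidylserine, rose from 0.218 to 2.18 CPM, or to 1.37 CPM without ASC 6. Stab2, another phosphatidylserine receptor, fell from 19.4 to 0.61 CPM (0.386 CPM without ASC 6) and Boc, a cadherin-associated receptor, from 98.3 to 12.6 CPM.

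Of 28 differentiation genes downstream of the MRFs, 23 were higher in ASCs, 3 were lower and 2 were not called, where 31.1% of all genes were higher and 27.8% lower. Their median log2 fold change was 2.37 against 0.01 over all genes (2.20 against −0.07 without ASC 6). Chrng and Chrnd, subunits of the fetal acetylcholine receptor, rose from 0.394 to 59.3 CPM and from 1.19 to 102 CPM. Ttn (titin) rose from 5.38 to 512 CPM, Myh3 (embryonic myosin) from 1.84 to 86.8 CPM, Tnnt2 from 0.764 to 35.1 CPM and Mybph from 1.41 to 18.7 CPM. The 3 lower genes were Musk, Chrnb1 and Rapsn, with log2 fold changes of −1.48, −1.47 and −0.75, and Ckm joined them without ASC 6. Chrna1, another acetylcholine receptor subunit, was higher, at 3.26. Chrng, Ttn, Chrnd, Myh3, Tnnt2 and Mybph were called without ASC 6 as well.

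In KO QSCs none of the genes of the 4 lists was called by edgeR, by DESeq2 or by limma-voom. An unadjusted p under 0.05 was found for 0 of 7, 1 of 33, 0 of 28 and 4 of 28 genes of the lists, in the order given, and for 4.91% of all genes (1232 of 25093). In the edgeR fit without ASC 6 there were 0, 2, 1 and 4 such genes, against 1692 of 25093. No gene of the lists was called in that fit either. The difference between the lists was not tested. The 3 differentiation genes with the lowest p were Actc1 (2.28 CPM in control and 5.97 CPM in KO, adjusted p = 0.862), Myh3 (0.71 and 2.97 CPM, adjusted p = 0.882) and Tnnt2 (0.448 and 1.08 CPM, adjusted p = 0.922). Single libraries moved these low means, and not in the same sense. The omissions below widened the difference between the genotypes for Actc1 and Myh3 and narrowed it for Tnnt2. Without control replicate 3 the control mean of Actc1 was 1.5 CPM, without control replicate 1 that of Myh3 was 0.304 CPM, and without KO replicate 3 the KO mean of Tnnt2 was 0.692 CPM. The genotypes did not overlap for Actc1 and Myh3. Those with the lowest p among the partners and inhibitors were Tcf12, Id4 and Tcf4, and among the fusion genes Cdh15, Neo1 and Dysf, all with an adjusted p of 1 (edgeR). Cdh15 was at 301 CPM in control and 425 CPM in KO QSCs, without overlap. With all libraries, the 1 gene of the second list was Tead4, at 1.44 CPM in control and 0.808 CPM in KO QSCs (adjusted p = 0.917, edgeR). Twist1 and Vgll3 followed it in that list, each with an adjusted p of 1 (edgeR). Tead4 was lower and Vgll3 higher in KO, both without overlap, while the genotypes overlapped for Twist1. Separation with KO above control, as for Actc1, Myh3, Cdh15 and Vgll3, was found for 7.39% of all genes. The share with KO below control is not given here, so the separation of Tead4 is not read as a result. The median log2 fold changes of the 4 lists, in the order given, were 0.10, −0.12, 0.01 and 0.17, against 0 over all genes. Without ASC 6 they were 0.08, −0.14, −0.01 and 0.15, against −0.02.

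**Figure D5:**
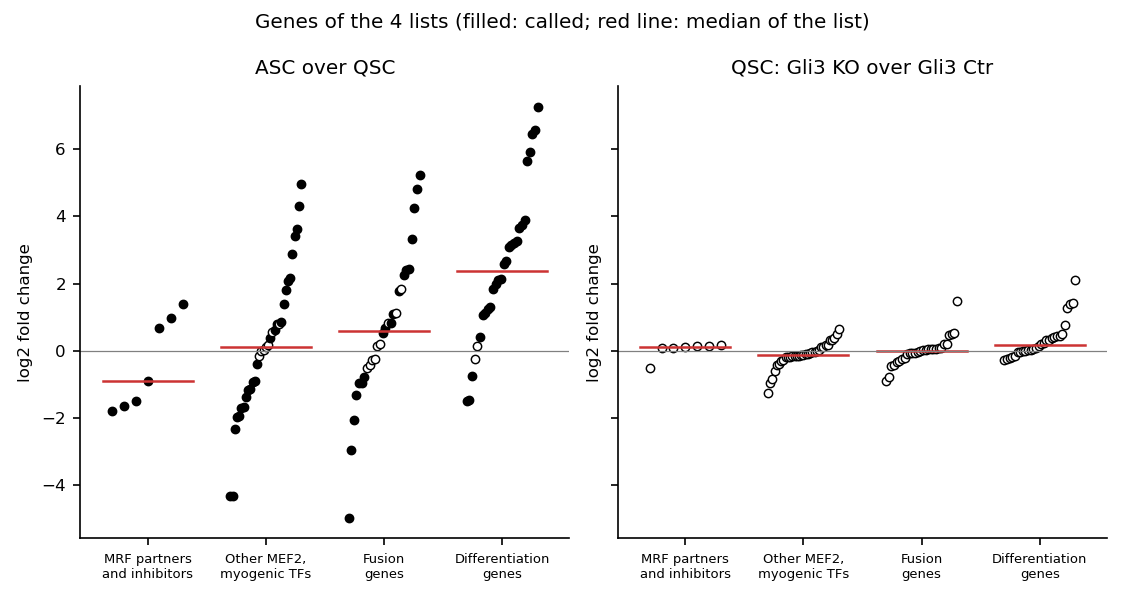
Log2 fold changes of the genes of the 4 lists for ASC over QSC (left) and KO over control in QSCs (right), ordered by value within each list. Filled points were called and red lines are list medians. The differentiation genes have a median of 2.37 on the left, and no gene is called on the right.

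The genes whose level followed a member most closely over the 12 libraries were found by Pearson's r of log2(CPM + 1) among 10159 genes with a mean of at least 10 CPM. The libraries fall into the 2 states, and r mostly describes that split. For Pax7 they included Slc38a3 (r = 0.997) and Drp2 (0.994), and 624 genes exceeded 0.95. For Myod1 they were Gatad1 (0.997), Met, the receptor of hepatocyte growth factor (0.995), and Nadk (0.995), and 1644 genes exceeded 0.95. For Myog they were Actc1 (0.990), Myh3 (0.985) and Vash2 (0.985), with 299 genes above 0.95. Actc1 and Myh3 are differentiation genes of the list above.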

How the data were processed

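The authors assigned reads to GRCm38 transcripts with Salmon and deposited estimated counts per gene, not normalized. They also deposited 4 tables of fold changes and p-values from DESeq2. Of these tables only the mean signal per gene, the authors' mean of normalized counts, was used: the mean of the 12 columns lay within 10% of it for 93.1% of 13568 genes with a mean of at least 100. Their other values were not used. All 12 per-sample columns were used. ASC columns show no genotype, and 2 ASC samples have a title that names the other genotype than their remaining labels, so genotype was not compared in ASCs.

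Counts were rounded (between 44.3% and 51% of values per library were not whole). They were tested in 1 edgeR 4.0.16 quasi-likelihood fit (R 4.3.3, TMM, means for control QSCs, KO QSCs and ASCs, no further filter). The fit was also run on simulated counts, with the same spread for every gene and no outlying library. That run does not show how many changes the fit can find in these data. ASCs were compared with the mean of both QSC groups. Since the ASC group mixes genotypes, its SD includes any difference between them. Alternatives were DESeq2 1.42.0, limma 3.58.1 voom, other normalizations and filters, the replicate block and leaving out each library. Members and lists were chosen with earlier results of these data known. Named genes were all members and satellite cell markers and, per list, up to 6 called genes of largest change or the 3 of lowest p. Musk, Chrnb1, Rapsn, Ckm and Chrna1 were named after their values were seen. Group means and the order of levels without a single library, the myofiber sum without Atp2a1 and the satellite cell sums over fewer genes were likewise chosen after seeing the data. Y-linked genes were counted in all libraries and Xist was at most 1.78 CPM. Results for some genes that these rules name are not reported here.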

Additional observations from a re-analysis of the deposited data

Results flagged for a closer look

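Mef2c in ASCs was the 1 of 12 tested quantities (9 members and 3 ratios over the 6 ASC libraries) with a library far from the rest. ASC 6 was at 59.6 CPM, and the gap to the next library, at 12.8 CPM, made up 0.913 of the range of the group. Chance alone marks about 1 in 20 such groups. ASC 6 was also the library with the highest markers of macrophages, fibro-adipogenic, Schwann, mural and endothelial cells, and their part in this value was not tested.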

How the results depend on the processing

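The state comparison kept its direction and its calls for all 9 members under every alternative that could be run. Mymk, Mymx and Pax3 could not be tested with at least 10 counts in every library. The count of called genes, 14775, ranged from 13648 to 15236 when each library was left out. Upper quartile normalization moved the median log2 fold change of all genes from 0.01 to −0.15. In QSCs, the 3 genes called for KO against control became 148 with DESeq2, 63 with limma-voom, 88 with the QSC libraries alone and 1 with at least 10 counts in every library, and ranged from 2 to 17 when each library was left out, 17 being without ASC 6, 7 without KO replicate 2 and 5 without either KO replicate 1 or ASC 5. The replicate block gave 79 calls. Whether the replicate numbers pair the samples is not settled. Deviations from the group means correlated at −0.25, −0.01 and −0.06 for control and KO libraries of the same number. For libraries of different number the correlations ran from −0.24 to 0.31. Deviations over 3 libraries per group cannot show or exclude a pairing. No block was possible with ASC columns, whose names give no replicate number. Mymx was called by DESeq2 (log2 fold change 2.85) and by no other alternative. Leaving out each library, log2 fold changes near 0 changed sign for Pax7 (−0.16 to 0.12), Pax3 (−0.28 to 0.041), Myod1 (−0.21 to 0.010) and Mef2c (−0.45 to 0.0043), and the Myod1 to Pax7 difference ran from −0.27 to 0.014. The cause of these differences was not tested. Comparisons of genotype in ASCs, and their alternatives, were not run because the columns do not show it. Members under 1 CPM rest on few counts.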
